A study of Mus musculus with 8 samples.

Results

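The genes described here are the nuclear genes of the mitochondrial respiratory chain and ATP synthase in Hepa1-6 cells, a mouse hepatoma line used as a hepatocyte model. Members were chosen by gene symbol alone: Nduf genes of complex I, Sdha to Sdhd of complex II, Uqcr genes of complex III, Cox4 to Cox8 genes of complex IV and Atp5 genes of complex V. The rule matched 97 rows, 8 of them -ps pseudogenes that were removed, and left 89 genes of 54446 in the count table. Complex I had 40 of them, complex II 4, complex III 8, complex IV 19 and complex V 18. Of the 89 genes, 85 are annotated as protein-coding, and Cox6c2, Ndufa11b, Ndufb4c and Ndufs6b are annotated as processed pseudogenes. A filter on low counts left 77 genes for testing: 36, 4, 8, 12 and 17 in complexes I to V.

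Complexes I and II pass electrons from NADH and succinate to ubiquinone, complex III passes them on to cytochrome c, and complex IV hands them to oxygen. Proton pumping by complexes I, III and IV builds the gradient that complex V uses to make ATP. Most subunits are encoded in the nucleus, translated in the cytosol and imported, and a small core of complexes I, III, IV and V is encoded by mitochondrial DNA, whereas complex II is wholly nuclear. Hepatocytes depend on this machinery for gluconeogenesis, urea synthesis and fatty acid oxidation.

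Cells were treated for 24 h in 4 groups: untreated control, 50 µM trimethylamine N-oxide (TMAO), 50 ng/ml tumour necrosis factor α (TNF), and both agents together. TMAO is made in the liver from trimethylamine produced by gut microbes, and TNF is an inflammatory cytokine. For the combined group, 1 label names TMAO where the titles and the treatment protocol name TNF, and the titles were followed. Each group had 2 libraries of poly(A)-selected RNA, numbered 14 and 16. The labels call Hepa1-6 a C57BL/6 line and do not say whether 14 and 16 were separate cultures, so the p-values measure only how far such a pair of libraries differed, possibly for technical reasons.

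Totals were 24736746 to 30488605 reads assigned to genes per library, and 3 reads, taken as the floor, correspond to 0.0993 to 0.124 CPM, read counts scaled to the TMM-adjusted library size. The line is a hepatoma line, and the hepatocyte genes Alb and Afp were abundant, while 3 of 9 hepatocyte markers (Apoa1, Ttr, Serpina1a) stayed under 1 CPM in every library. The summed level of the 9 markers was 2970 to 3113 CPM in control, 2799 to 2841 with TMAO, 1154 to 1410 with TNF and 1110 to 1155 with both agents. Sums were 12.3 to 17.6 CPM for 6 macrophage markers, at most 2.48 for 6 stellate cell markers and at most 1.09 for 4 endothelial markers. The 5 cholangiocyte markers summed to 193 to 293 CPM, lower in both groups given TNF. Alb (1228 CPM in control 14) and Afp (1591) carried most of the hepatocyte sum, and Spp1 (223) most of the cholangiocyte sum. Among hepatocyte markers over 1 CPM in any library, only Apoa2 rose with TNF, from 0.574 and 0.793 to 1.19 and 2.03 CPM. The cholangiocyte markers fell except Sox9, at 48.1 and 49.0 CPM in control and 48.9 and 42.6 with TNF. The part of these marker shifts in the results below was not tested. In bulk RNA, fewer cells of a type and less RNA per cell cannot be told apart.

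Levels between genes were compared in the authors' TPM values, which are scaled for both length and library size. In control cells the catalytic head of ATP synthase led the list: Atp5b, its β subunit, averaged 1880 TPM and Atp5a1, its α subunit, 836 TPM. The most abundant members of complexes IV, III and II were Cox4i1 (687 TPM), Uqcr10 (517 TPM) and Sdha (211 TPM). The least abundant tested members were Ndufc1 at 19.5 TPM in complex I, Sdhc at 62.9 TPM in complex II, Uqcrq at 166 TPM in complex III, Cox7a1 at 1.34 TPM in complex IV and Atp5s at 5.01 TPM in complex V. Atp5s is a coupling factor rather than a standing subunit.

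**Figure D1:**
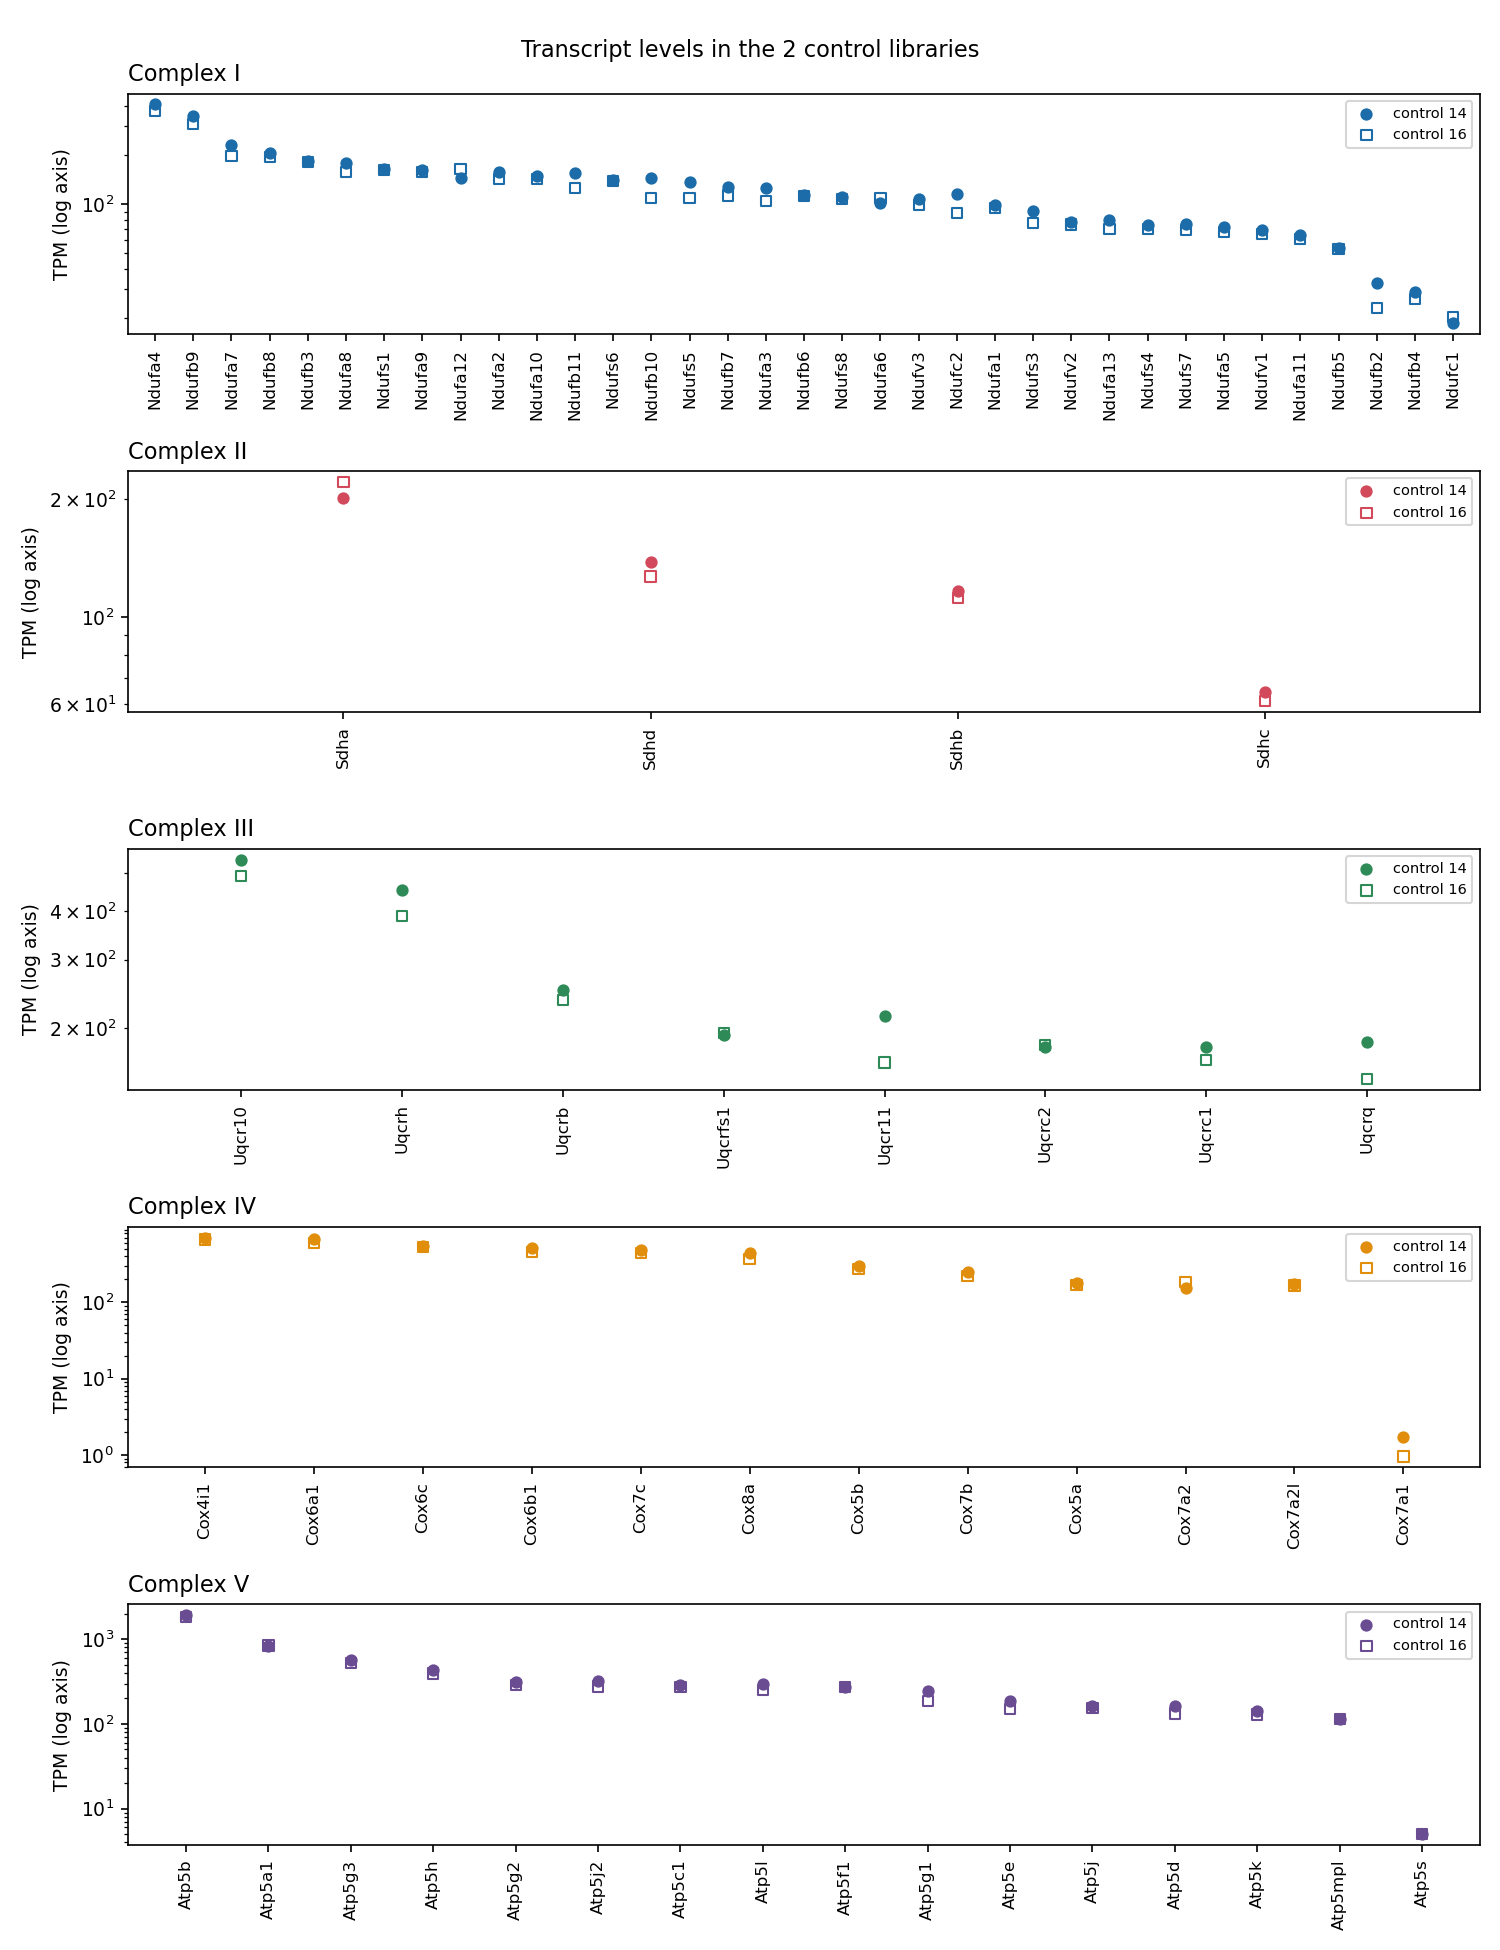
TPM (log axis) of the tested genes in the control 14 library (filled circles) and the control 16 library (open squares), by complex, sorted by mean, with an axis of its own for each panel. Atp5b at 1880 TPM and Cox7a1 at 1.34 TPM are the extremes, and for most genes the 2 libraries lie close together beside the spread between genes. Atp5o, listed under 2 identifiers, and 1 gene not reported here are not drawn.

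Where a subunit has tissue forms, the form known from liver and most other tissues carried the signal. For the cytochrome c oxidase subunits, Cox4i1, Cox6a1 (641 TPM), Cox6b1 (488 TPM), Cox7a2 (171 TPM), Cox7b (238 TPM) and Cox8a (405 TPM) were well expressed. Their counterparts were at or near the floor, apart from Cox7a2l of the Cox7a family, which averaged 171 TPM in control. Cox6a2, a heart and muscle form, and Cox8c had 0 reads in all 8 libraries, which allows up to 0.0993 to 0.124 CPM. Cox4i2, a lung form, had 10, 4, 8, 4, 7, 0, 6 and 2 reads in the control, TMAO, TNF and combined libraries, number 14 before 16 in each group. Cox6b2, Cox7b2 and Cox8b had no more than 4 reads in any library. Cox7a1, the heart and muscle form of subunit VIIa, was tested but at 0.140 to 0.703 CPM. In the same way, Ndufa4 stood at 390 TPM in control, while its paralogue Ndufa4l2 had at most 4 reads per library. Ndufa4 carries a complex I name but is now placed in complex IV. The identical c-ring peptide of ATP synthase is made from 3 genes, and Atp5g3 (545 TPM) was above Atp5g2 (298 TPM) and Atp5g1 (215 TPM) in the control libraries. Many of these genes have processed copies in the mouse genome, and the labels do not say how shared reads were counted, so single-gene levels are uncertain to that extent.

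Nuclear respiratory genes are known for promoters that bind NRF1, ETS factors such as GABP, and YY1. RefSeq promoter windows (GRCm38.p6, 250 bases before to 50 after the start) were matched for 66 member symbols, with 71 windows, and 22 symbols were not matched. On either strand, the NRF1 motif, searched as GCGC, any 1 base and then TGCGC, was found in 18 member windows (25.4%, against 4.6% of 32851 windows of all genes). The ETS motif CCGGAAG was in 16 member windows (22.5% against 8.86%), and the YY1 motif AAGATGGCG in 7 (9.86% against 1.4%). The motifs do not overlap in the windows printed here, and a match is a description of letters, not of binding. The 250 bases upstream are printed for Cox6a1, whose TNF libraries stood 1.09 apart in log2 CPM, for Sdhd, an anchor of complex II, and for Sdha, which hardly varied between them. Capitals mark motif matches, which read CTTCCGG where the ETS motif lies on the other strand.
Cox6a1 (chr5:115348959-115349208, minus strand): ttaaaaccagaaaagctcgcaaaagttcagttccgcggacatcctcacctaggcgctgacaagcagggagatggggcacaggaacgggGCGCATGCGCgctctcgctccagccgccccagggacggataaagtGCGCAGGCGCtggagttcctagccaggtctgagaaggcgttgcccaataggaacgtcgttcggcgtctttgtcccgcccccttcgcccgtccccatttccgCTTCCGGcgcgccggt
Sdhd (chr9:50603850-50604099, minus strand): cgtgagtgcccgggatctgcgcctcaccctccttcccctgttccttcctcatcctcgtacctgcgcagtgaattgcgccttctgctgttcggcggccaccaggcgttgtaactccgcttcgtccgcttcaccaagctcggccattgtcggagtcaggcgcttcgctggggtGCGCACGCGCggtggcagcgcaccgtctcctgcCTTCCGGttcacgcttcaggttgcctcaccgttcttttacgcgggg
Sdha (chr13:74350241-74350490, minus strand): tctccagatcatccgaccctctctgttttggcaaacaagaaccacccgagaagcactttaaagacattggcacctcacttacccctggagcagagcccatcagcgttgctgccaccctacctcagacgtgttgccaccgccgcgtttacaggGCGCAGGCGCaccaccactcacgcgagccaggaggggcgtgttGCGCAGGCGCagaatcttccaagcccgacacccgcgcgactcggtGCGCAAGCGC
Cox6a1 held 2 NRF1 matches and 1 ETS match, Sdhd 1 of each, and Sdha 3 NRF1 matches and no ETS match. Tested members with and without an NRF1 match had similar medians, 0.92 (17 genes) and 0.85 (46 genes) for the log2 difference between the TNF libraries and -0.18 and -0.21 for the log2 fold change of the combined group against control.

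The pattern that ran through the whole set was a difference between the 2 TNF libraries. TNF 16 was the highest of the 8 libraries for 73 of the 77 tested genes, and the lowest library was TNF 14 for 23 genes, TMAO and TNF 14 for 21 and TMAO and TNF 16 for 25. The mean log2 CPM over the 77 genes was 6.55 in TNF 16 and 5.76 in TNF 14. It was 6.08 and 5.85 in control 14 and 16, 5.86 and 5.88 with TMAO, and 5.79 and 5.76 with both agents. TNF 16 stood above TNF 14 for 76 of 77 genes with a median log2 difference of 0.84, against -0.00 over all genes tested. Control 14 stood above control 16 for 72 genes with a median of 0.21. The paired libraries of the TMAO group and of the combined group differed by medians of 0.01 and -0.02.

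**Figure D2:**
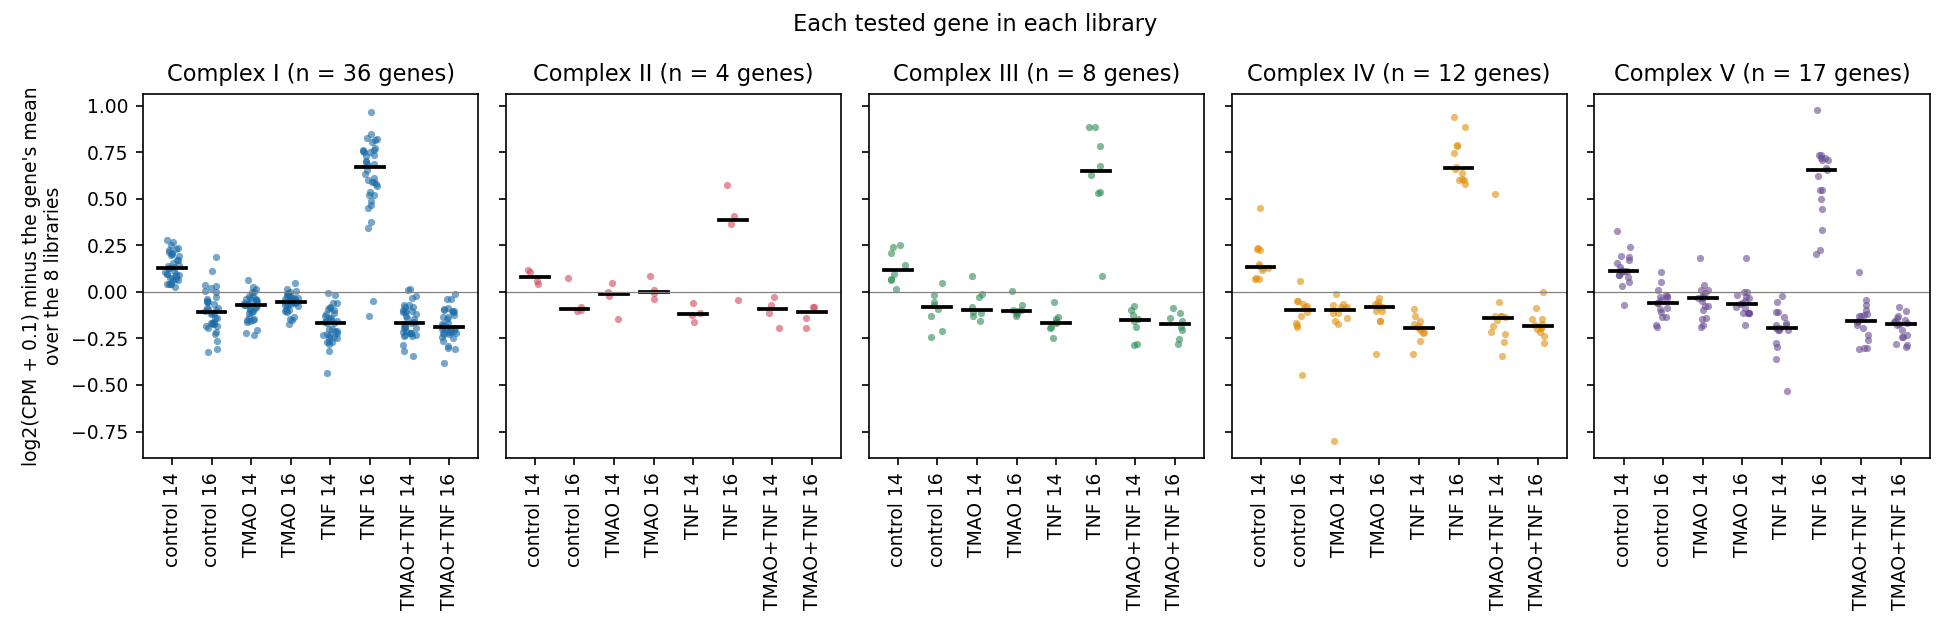
Log2(CPM + 0.1) of each tested gene minus its own mean over the 8 libraries, 1 panel per complex, 1 point per gene, black bars at the median. In every panel the median of TNF 16 sits above those of the other 7 libraries, by less in complex II, and control 14 sits slightly above control 16.

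The shift of TNF 16 was shared by the complexes but not by every subunit. The median log2 difference of TNF 16 from TNF 14 was 0.86 in complex I, 0.83 in complex III, 0.83 in complex IV and 0.86 in complex V, and 0.47 in complex II. Within complex V it was 0.65 over the 5 F1 subunits, 0.74 over the 3 c-ring genes and 0.80 over the 4 peripheral stalk genes. Within complex III it was 0.66 over the core and Rieske proteins and 0.95 over the 5 small subunits. Within complex I it was 0.69 over the 7 core subunits and 0.86 over the 29 others. With 2 libraries, this difference has no test.

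Cox6a1 (ENSMUSG00000041697.8), a nuclear subunit of cytochrome c oxidase, shows the common case. Its level, giving library 14 before 16 here and below, was 195 and 159 CPM in control, 161 and 167 with TMAO, 156 and 332 with TNF, and 158 and 159 with both agents. TNF 16 is the only high library, and the other 7 lie within the range of the control pair or just below it. Atp5e (ENSMUSG00000016252.7), the ε subunit of the F1 stalk, was at 47.8 and 37.0 CPM in control, 42.1 and 38.7 with TMAO, 34.1 and 82.5 with TNF, and 34.0 and 34.3 with both agents. Apart from TNF 16, every library given TNF lay below both controls. Atp5b (ENSMUSG00000025393.12) ranged less, with 1874 and 1709 CPM in control, 1713 and 1708 with TMAO, 1610 and 2188 with TNF, and 1599 and 1575 with both agents.

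A handful of subunits did not share the shift. Sdha (ENSMUSG00000021577.14), the flavoprotein of succinate dehydrogenase, was at 295 and 298 CPM in control, 293 and 300 with TMAO, 260 and 275 with TNF, and 278 and 268 with both agents. All 4 libraries given TNF lay below all 4 without it. Uqcrc2 (ENSMUSG00000030884.12), a core protein of complex III, was at 142 and 145 CPM in control, 149 and 141 with TMAO, 135 and 149 with TNF, and 131 and 132 with both agents. Ndufs1 (ENSMUSG00000025968.16), the large iron-sulfur subunit of complex I, was at 155 and 156 CPM in control, 155 and 157 with TMAO, 146 and 147 with TNF, and 153 and 148 with both agents. For Ndufs1, too, the groups with and without TNF do not overlap in CPM. In TPM they overlap for both genes, as given below. The share of all genes that separate in this way was not counted, so both cases are descriptions only. Ndufb2, an accessory subunit, was the only tested member lower in TNF 16 than in TNF 14, by a log2 difference of -0.12.

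**Figure D3:**
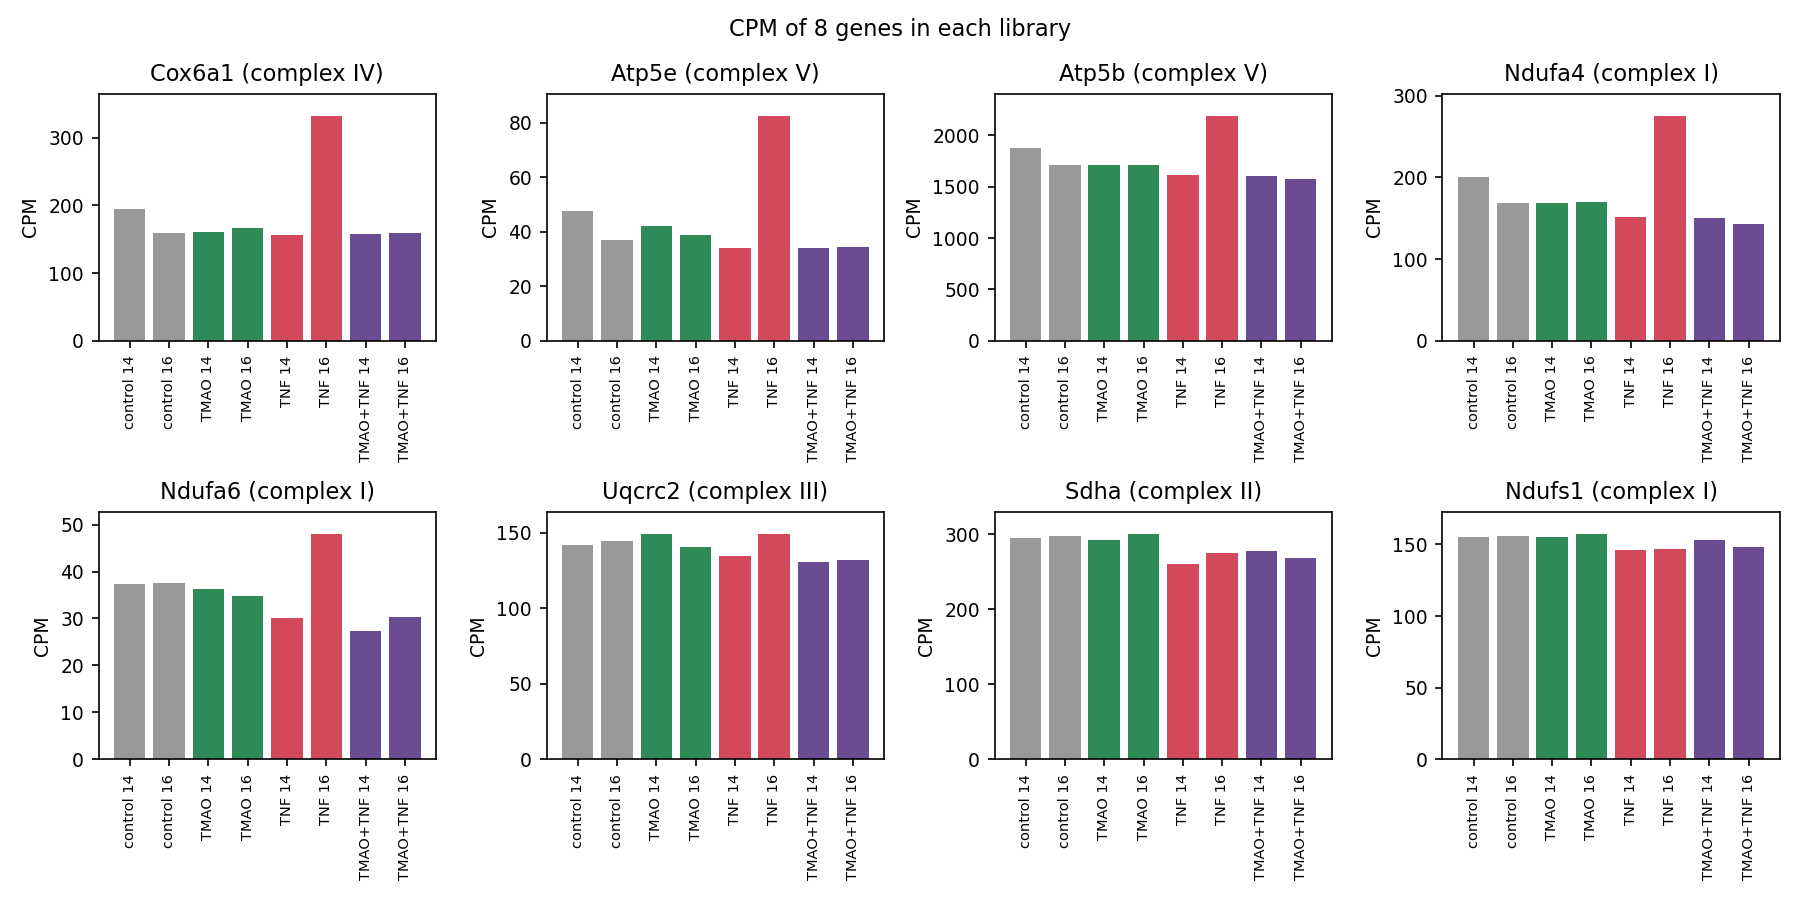
CPM (axes from 0) of 8 genes in each of the 8 libraries, bars coloured by group. TNF 16 is the tallest bar for Cox6a1 (332 CPM), Atp5e (82.5), Atp5b (2188), Ndufa4 (275) and Ndufa6 (47.9), and is not set apart for Uqcrc2 (149), Sdha (275) or Ndufs1 (147).

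The difference between the TNF libraries moved with transcript length. Members are short, with a median principal transcript of 861 bases against 2662 for all genes tested. Among other protein-coding genes at 10 CPM or more, the median log2 difference of TNF 16 from TNF 14 was 0.79 for transcripts up to 1000 bases, 0.61 up to 1500, 0.43 up to 2000, 0.20 up to 3000, -0.05 up to 4000 and -0.47 above 4000. Members in the first 4 of these classes had medians of 0.91 (43 genes), 0.74 (14 genes), 0.68 (10 genes) and 0.19 (4 genes). The unshifted Sdha and Ndufs1 have transcripts of 2900 and 2661 bases. Not every member followed its length. Uqcrc2, with 1896 bases, had a difference of 0.14, below the 0.43 of other genes in its class. Sdhc (3171 bases) and Ndufa10 (2020 bases) had 0.47 and 0.63, above the -0.05 and 0.20 of their classes. Atp5g1, with an annotated principal transcript of 4715 bases, had a difference of 0.86, but its counts and TPM disagree, as given below, so that its length is uncertain. Across genes, Pearson's r with log2 length was -0.59 over 73 members and -0.77 over 8725 other genes, and these genes share 2 libraries. The median was 0.87 over 79 cytosolic ribosomal protein genes, with a median transcript of 878 bases, and 0.68 over 77 mitochondrial ribosomal protein genes (1316 bases). It was 0.21 over 13 citrate cycle genes, whose transcripts are longer (2544 bases). The 13 mitochondrially encoded subunits have a median transcript of 784 bases, and their median difference of 0.03 covers genes that went both ways. Of them, 7 were higher in TNF 16, such as mt-Nd6 (152 CPM in TNF 14 and 247 in TNF 16). Among the others were mt-Nd2 (2041 and 1527 CPM) and mt-Atp8, which was near the floor (0.364 and 0 CPM). Counts of the 13 genes were very uneven. In control 14, mt-Co1 was at 11136 CPM, mt-Co3 at 13.5, mt-Atp8 at 0.608 and mt-Nd4l at 0.541. Medians over the 13 thus mix well counted and barely counted genes. The difference of control 14 from control 16 also moved with length among the other protein-coding genes at 10 CPM or more. Its median fell from 0.21 for transcripts up to 1000 bases to -0.12 above 4000. Across genes, the TNF and control differences had a Pearson's r of 0.60 over 73 members and 0.84 over 8725 other genes. Control 14 enters the comparisons against control with all 8 libraries. The part of transcript length, RNA quality or library preparation in either difference was not tested.

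**Figure D4:**
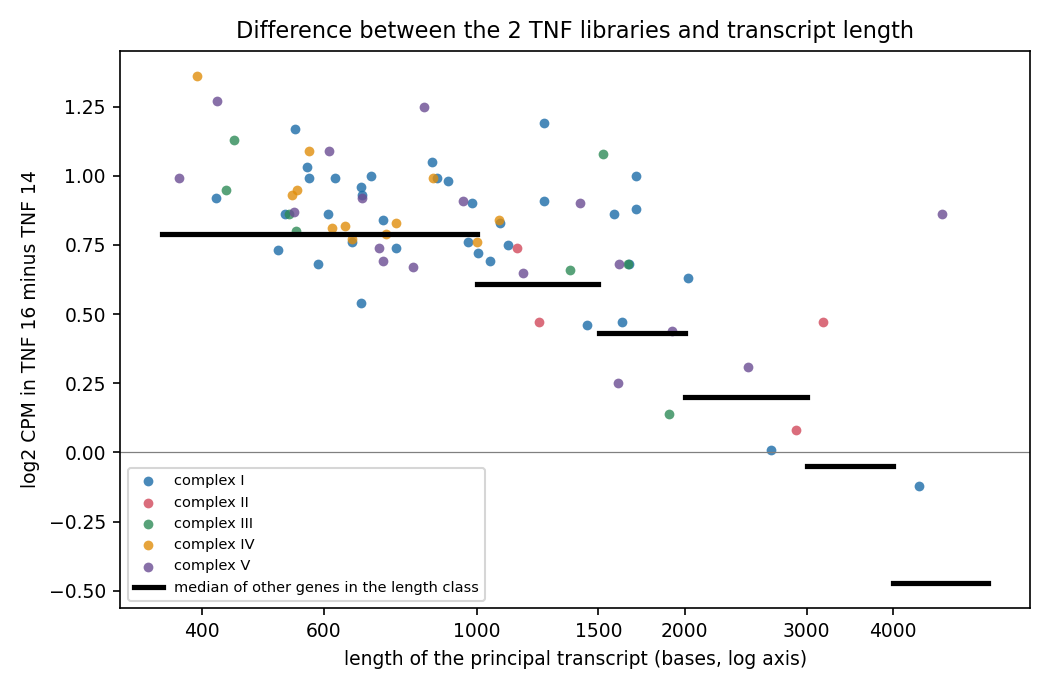
Log2 CPM in TNF 16 minus TNF 14 against the length of the principal transcript (log axis) for the members, coloured by complex, with black bars at the median of other genes in 6 length classes. Short members lie near or above the bars, which go from 0.79 to -0.47 with length.

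In the deposited TPM values, TNF 16 was the highest library for 65 of 76 members. Atp5b was at 1665 and 1734 TPM in the TNF libraries and 1919 and 1840 in control, so that its high CPM in TNF 16 had no counterpart in TPM. Sdha was at 196 and 155 TPM with TNF, 208 and 203 with both agents and 201 and 221 in control. Ndufs1 was at 160 and 125 TPM with TNF, 168 and 169 with both agents and 165 and 161 in control. Their separation of libraries with and without TNF in CPM was thus not seen in TPM. Counts and TPM went apart for Ndufb2, whose TNF 16 library was among the lowest in CPM (3.60, against 3.37 to 4.73 over all 8) and the highest in TPM (42.9, against 21.9 to 32.9 in the other 7). In control its CPM per kilobase of principal transcript was 0.0378 of its TPM, the lowest ratio among tested members. The ratio was 0.0864 for Atp5g1, 0.111 for Ndufb9 and 0.115 for Atp5l, and the fold changes from counts of these 4 genes are uncertain. Atp5o is uncertain because it is listed under 2 overlapping identifiers.

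With all 8 libraries, no member passed the test in any of the 6 comparisons (edgeR's quasi-likelihood test, Benjamini-Hochberg adjusted p under 0.05 over 15613 genes). DESeq2 and limma-voom also called 0. At an unadjusted p under 0.05, edgeR found 0 members in 5 comparisons and 1, Ndufs7, in the combined group against TNF. Of all genes tested, 2.38% were called higher and 1.67% lower with TNF against control, 2.01% and 1.48% with both agents against control, and 2.16% and 1.49% with both agents against TMAO. Against those shares, 0 of 77 members is near the background. TMAO against control, both agents against TNF, and the interaction of TMAO and TNF called 0 genes of 15613 (0%), with 184, 549 and 184 genes at an unadjusted p under 0.05. The median 95% interval of a member's log2 fold change reached 0.59 to either side, and 0.83 for the interaction, so differences of a size within that width could not be told from 0 with these libraries.

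The TNF comparison asked how the cytokine alone affects these genes. The median log2 fold change of the 77 genes was 0.26, against 0.02 over all genes, and 72 were above 0. Medians by complex were 0.27 (I), 0.16 (II), 0.25 (III), 0.30 (IV) and 0.18 (V). The highest in each complex were 0.54 ± 0.30 (SE) for Ndufb7, 0.47 ± 0.31 for Cox6a1, 0.46 ± 0.36 for Atp5e, 0.43 ± 0.32 for Uqcrq and 0.27 ± 0.22 for Sdhb. The lowest in each complex were -0.30 ± 0.16 for Ndufb2, -0.15 ± 0.10 for Sdha, -0.01 ± 0.10 for Uqcrc2, -0.01 ± 0.18 for Atp5s and 0.10 ± 0.25 for Cox5a. The sign of the median turned with TNF 16. Without that library it was -0.20, 76 of 77 genes were below 0, and 9 genes were called lower (11.7% of members, against 5.95% of all genes) and 0 higher (6.95%). They were Atp5mpl, Ndufb10, Ndufs8, Cox7c, Ndufs4, Ndufv3, Atp5c1, Ndufa6 and Ndufa4. Without TNF 14 instead, the median was 0.60 and 71 of 77 genes were called higher, against 23.7% of all genes, and 0 lower (25.1%). The 2 TNF libraries thus give opposite signs for this set. Both TNF libraries were below both controls for 3 genes (17.5% of all genes were) and above both for 0 (17.6%). Without TNF 16 and control 14, the comparison is of 1 TNF library with 1 control library. Their spread is assumed to be that of the TMAO and combined pairs. The control library kept matters: Ndufs3 was at 42.2 CPM in TNF 14, between control 14 (49.4) and control 16 (36.1). Its log2 fold change was -0.02 without TNF 16 only and 0.23 without control 14 too. The median was then -0.08, and 15 genes were called lower (10.1% of all genes) and Ndufs3, a core subunit of complex I, higher (10.0%).

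TMAO alone left the set near control. The median log2 fold change was -0.08, against 0.00 over all genes and -0.09 over other genes with transcripts up to 1000 bases, and 72 of 77 genes were below 0. Without control 14 it was 0.01 and without control 16 it was -0.19. Medians by complex were -0.08 (I), -0.01 (II), -0.12 (III), -0.13 (IV) and -0.07 (V). Values ran from 0.06 ± 0.30 (SE) for Ndufb7 to -0.27 ± 0.16 for Ndufb2 in complex I, and reached -0.07 ± 0.22 for Sdhb, -0.20 ± 0.25 for Uqcrh, -0.26 ± 0.31 for Atp5mpl and -0.85 ± 0.75 for the barely expressed Cox7a1. Both TMAO libraries were below both controls for 19 genes (15.9% of all genes were) and above both for 0 (17.2%). Without TNF 16, edgeR called 0 members, with 10 at an unadjusted p under 0.05, and 0.0550% of all genes lower and 0% higher. Without both TNF 16 and control 14, the higher of the controls, the median was 0.01, and 0 members were called by edgeR, with 7 at an unadjusted p under 0.05 and 0.0246% of all genes called higher and 0.271% lower.

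With both agents, the median log2 fold change against control was -0.18, against -0.00 over all genes, and 75 of 77 genes were below 0. Medians by complex were close together, at -0.17 (I), -0.13 (II), -0.20 (III), -0.18 (IV) and -0.21 (V). The lowest value in each complex was -0.38 ± 0.21 (SE) for Ndufa6, -0.18 ± 0.16 for Sdhd, -0.31 ± 0.25 for Uqcrh, -0.37 ± 0.25 for Cox5a and -0.45 ± 0.27 for Atp5g1. The highest were -0.02 ± 0.30 for Ndufc2, -0.08 ± 0.22 for Sdhb, -0.12 ± 0.21 for Uqcrc1, 0.27 ± 0.68 for Cox7a1 and 0.06 ± 0.26 for Atp5l. Both combined libraries were below both controls for 54 of 77 genes (29.3% of all genes were) and above both for 0 (27.9%). TNF 16 enters this comparison only through the scaling and the shared estimate of the spread. Without it, 21 genes were called lower, 9 of 36 in complex I, 0 of 4 in complex II, 2 of 8 in complex III, 4 of 12 in complex IV and 6 of 17 in complex V (27.3% of members, against 9.40% of all genes), and 0 higher (8.99%). Leaving out control 14 as well, a choice made after seeing the data, left 1 control library, assumed to vary like the other groups, and brought the median to -0.07, with 17 genes called lower (11.6% of all genes) and Ndufc2 higher (11.2%). With control 14 alone left out the median was -0.06, and with control 16 alone left out -0.29. Other short genes lay below 0 as well: their median was -0.15 for transcripts up to 1000 bases and -0.12 up to 1500, against -0.20 and -0.18 for members of those lengths. Cytosolic ribosomal protein genes had a median of -0.16.

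**Figure D5:**
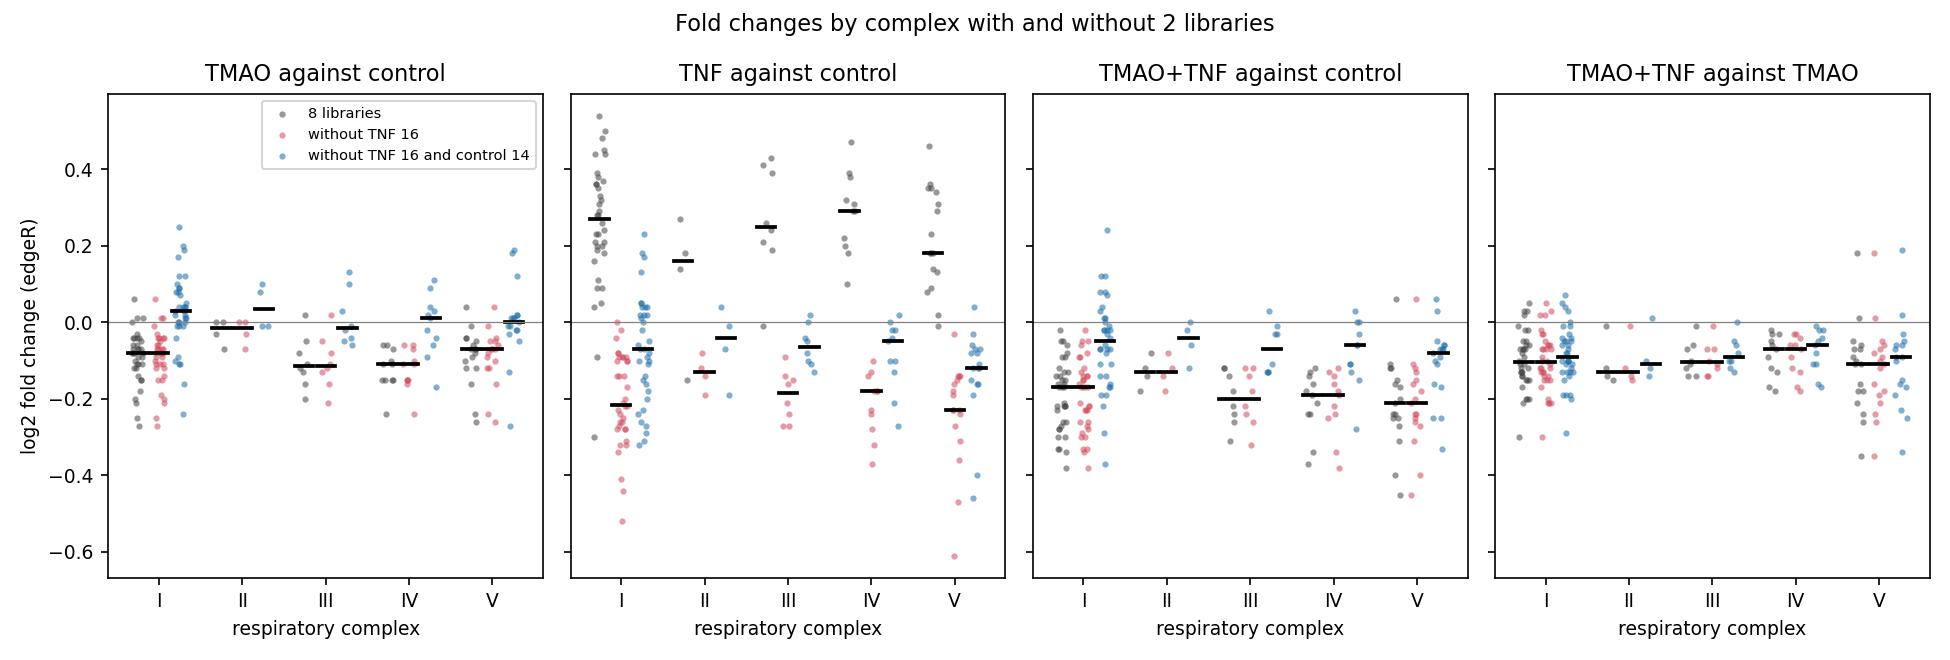
Log2 fold change of each tested gene except Cox7a1 by complex in 4 comparisons, from all 8 libraries (grey), without TNF 16 (red), and without TNF 16 and control 14 (blue), with black bars at the medians. In TNF against control, complex I moves from a median of 0.27 to -0.21 without TNF 16, while both agents against TMAO stays near -0.10.

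The combined group against TMAO uses TNF 16 and control 14 only through the scaling and the spread, and its 4 libraries differ little within groups. The median was -0.10 with all 8 libraries, against -0.02 over all genes, and -0.09 without TNF 16 and control 14. Other short genes lay below 0 here too. With 8 libraries their median was -0.06 for transcripts up to 1000 bases and -0.05 up to 1500, against -0.09 for members of either length. Cytosolic ribosomal protein genes had a median of -0.06 and citrate cycle genes of -0.10. Both combined libraries were below both TMAO libraries for 53 of 77 genes (33.7% of all genes were) and above both for 3 (28.9%). When the spread was estimated without TNF 16 and control 14, 26 genes were called lower (33.8% of members, against 15.1% of all genes) and 0 higher (14.6%). They were 9 of 36 in complex I, 3 of 4 in complex II, 3 of 8 in complex III, 3 of 12 in complex IV and 8 of 17 in complex V. In the same fit, 7 of 13 citrate cycle genes, 23 of 79 cytosolic ribosomal protein genes and 13 of 77 mitochondrial ribosomal protein genes were called lower. The spread then rests on the TMAO and combined pairs, with 2 residual degrees of freedom. Without TNF 16 only, 1 was called lower, Ndufa6 (7.97% of all genes were called lower and 8.07% higher). The number called therefore depends on the libraries that set the spread. Leaving out TMAO and TNF 16 instead moved the median to -0.06.

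The differences behind these 26 calls were small. Ndufa4 (ENSMUSG00000029632.7) was at 169 and 170 CPM with TMAO and 150 and 143 with both agents, against 200 and 168 in control. Its log2 fold change was -0.21 ± 0.26 (SE) with 8 libraries (adjusted p = 0.956) and -0.20 ± 0.03 without the 2 libraries (adjusted p = 1.73e-06, edgeR). Ndufa6 (ENSMUSG00000022450.6), an accessory subunit, was at 36.3 and 34.7 CPM with TMAO and 27.3 and 30.3 with both agents, and was 37.4 and 37.5 in control. Its log2 fold change was -0.30 ± 0.21 with 8 libraries and -0.29 ± 0.06 without the 2 libraries (adjusted p = 2.03e-04, edgeR). The combined pair lies below every library without TNF for both genes, a separation whose share over all genes was not counted.

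In the ATP synthase, the log2 fold change in the fit without the 2 libraries was -0.17 ± 0.03 (SE) for Atp5g3 and -0.09 ± 0.02 for Atp5b, and with all 8 it was -0.18 ± 0.22 and -0.11 ± 0.17. Cox8a, a small subunit of cytochrome c oxidase, was -0.17 ± 0.04 without them and -0.18 ± 0.29 with them, and ranged from -0.24 (without TMAO and TNF 16) to -0.09 (without TMAO and TNF 14). Sdha was -0.10 ± 0.03 and -0.12 ± 0.10, and Uqcrc2 was -0.12 ± 0.03 and -0.14 ± 0.10, with -0.08 when TMAO 14 was left out. Sdhc and Sdhd were called as well, and Sdhb, at -0.01 ± 0.22 with 8 libraries against TMAO, was not. The other 17 called genes lay between -0.23 ± 0.06 for Atp5e and -0.06 ± 0.02 for Atp5a1 in that fit.

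Both agents together against TNF alone could not be separated from the difference between the TNF libraries. The median was -0.45 with 8 libraries and -0.00 without TNF 16, with 75 and 39 genes below 0. The interaction of TMAO and TNF had a median of -0.35 with 8 libraries and 0.09 without TNF 16. Neither comparison called a member with or without TNF 16 (edgeR, 0% of all genes), and at an unadjusted p under 0.05 they held 1 and 4 members without TNF 16. Without TNF 16 and control 14, 0 members were called in either, with 8 and 7 at an unadjusted p under 0.05. Of all genes, 0.0246% were called higher and 0.0492% lower against TNF, and 0.00616% higher and 0% lower for the interaction. Without TNF 14 instead, 71 members were called lower with both agents against TNF (23.7% of all genes) and 0 higher (25.8%). Both combined libraries were below both TNF libraries for 23 genes (17.3% of all genes were) and above both for 1 (17.1%).

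Few genes around the chain passed the test with 8 libraries. Of the 13 mitochondrially encoded subunits, 0 passed in any comparison with 8 libraries, and their median with TNF against control was -0.04. The same held for 16 complex I assembly factors (median 0.17), 30 tested assembly factors of complexes II to V (0.08) and 21 tested regulators of respiratory genes (0.00). Among 18 other nuclear genes that feed or serve the chain, 1 passed: Pdss2, which makes the side chain of ubiquinone, fell by 0.70 ± 0.13 (SE) on the log2 scale with both agents against TMAO (adjusted p = 0.0305, edgeR). In the fit without TNF 16 and control 14, the mitochondrially encoded subunits had a median of -0.01 with both agents against TMAO. The medians were -0.09 for complex I assembly factors, -0.05 for those of complexes II to V and -0.03 for the regulators. Each of these lists held some called genes in that fit. They were lower only among the mitochondrially encoded subunits and the factors of complexes II to V. Among complex I assembly factors and regulators they went both ways. The level of Pdss2 was 18.5 and 18.8 CPM with TMAO, 10.8 and 12.1 with both agents, 12.4 and 11.9 with TNF and 15.2 and 17.9 in control. All 4 libraries given TNF lay below all 4 without it, and TNF 16 was not set apart. How many of all genes separate in this way was not counted. Coq8a, also of ubiquinone synthesis, and Etfdh, which passes electrons from fatty acid oxidation to ubiquinone, had the smallest p with TNF against control without passing, at 0.95 ± 0.24 (adjusted p = 0.0879, edgeR) and 0.35 ± 0.09 (adjusted p = 0.0998, edgeR).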

How the data were processed

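Poly(A)-selected RNA of 8 Hepa1-6 libraries was sequenced on an Illumina instrument in paired reads, per the labels' protocols. The authors deposited whole-number counts per gene, from htseq by the table's own name, and a table of TPM by gene symbol. The build was mm9, per the submitters' processing notes. For the aligner, annotation, strand setting and TPM method: not given in the sources used here. Gene identifiers were matched to GENCODE M21 (54409 of 54446), which also gave transcript lengths and types; no mm9 coordinates are printed.

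Counts were tested in R 4.3.3 with edgeR 4.0.16 (filterByExpr, TMM, robust quasi-likelihood, 1 mean per group, 4 residual degrees of freedom with 8 libraries), with Benjamini-Hochberg adjustment over 15613 genes. The script was tested on simulated data. SE is the absolute log2 fold change over the square root of F. Log2 CPM used a prior count of 2. Limma 3.58.1 and DESeq2 1.42.0 were alternatives. DESeq2 rows without an adjusted p were not counted as called.

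Samples were grouped by title. The members, lists and roles were chosen with earlier results of these data known. Named genes were, in each complex, those with the highest and lowest control TPM, those with the largest and smallest log2 fold change against control, all called genes, and the isoform families. Genes called only without certain libraries, and Sdha, Uqcrc2, Ndufs1, Atp5e and the genes of the printed promoters where outside that rule, were chosen after their values were seen. Leaving out control 14 with TNF 16 was chosen after seeing the data. The level of 1 gene that the rule names is not reported here.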

Additional observations from a re-analysis of the deposited data

How the results depend on the processing

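Normalization by DESeq2 size factors or total counts, other filters on low counts, DESeq2, limma-voom, TPM, known subunits only and fits of the 2 groups alone left the number of members called at 0 in each comparison, and the medians over members within 1 SD of the spread between libraries (0.27). That SD includes the spread of the TNF pair and is wider than the medians against control, so a median could reach 0 within it. On TPM the median of all genes moved by up to 0.15. Adding the label number as a replicate block called 0 members in each comparison, with medians of -0.09 (TMAO), 0.24 (TNF) and -0.19 (both agents) against control. The differences of library 16 from 14 correlated at -0.42 between control and TNF and at -0.05 to 0.00 otherwise. No shift in the same direction by number was seen, which cannot show whether the numbers pair the samples.

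Leaving out each library in turn, members called ranged from 0 to 71 (TNF against control), 0 to 21 (both agents against control), 0 to 71 (against TNF), 0 to 1 (against TMAO) and 0 to 70 (interaction). Medians ranged from -0.19 to 0.01 (TMAO against control), -0.20 to 0.60 (TNF against control), -0.29 to -0.06 (both agents against control), -0.80 to -0.00 (against TNF), -0.10 to -0.06 (against TMAO) and -0.66 to 0.09 (interaction). Against control with TMAO or both agents the extremes came from leaving out control 14 or 16. In the comparisons with TNF alone and the interaction they came from leaving out TNF 14 or TNF 16. A lone library is then assumed to vary like the other groups. For the interaction, the share of all genes called in such a fit is not given here. Its highest count of members therefore has no background to be read against, and no conclusion is drawn from it. Without both TNF 16 and control 14, 16 members were called with TNF against control, 18 with both agents against control and 26 against TMAO, with medians of -0.08 (TNF against control), 0.00 (both agents against TNF) and -0.01 (interaction). The cause was not tested.

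Signs of single genes that turned over the libraries left out, given as the range of the log2 fold change, were as follows. With TNF against control they were -0.04 to 0.94 (Ndufb7), -0.14 to 0.58 (Sdhb), -0.21 to 0.86 (Uqcrq), -0.09 to 0.04 (Uqcrc2), -0.18 to 0.90 (Cox6a1), -0.37 to 0.45 (Cox5a), -0.31 to 0.95 (Atp5e) and -0.14 to 0.11 (Atp5s). With TMAO against control Ndufb7 ranged from -0.12 to 0.25. With both agents against control they were -0.22 to 0.24 (Ndufc2), -0.19 to 0.98 (Cox7a1) and -0.03 to 0.17 (Atp5l). Without both TNF 16 and control 14, TNF against control gave -0.07 for Sdhb, -0.02 for Cox6a1, -0.27 for Cox5a and -0.11 for Atp5e, and both agents gave 0.24 for Ndufc2. On TPM, Ndufb2 with TNF was 0.19 with either pseudocount, and with both agents Atp5l was -0.01 with either and Cox7a1 -0.01 with a pseudocount of 1. With total counts only, Ndufc2 with both agents was 0.01.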
